A study of Mus musculus with 6 samples.

Results

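Genes that drive or carry out cell division were followed in the ectoderm, the sheet of cells around the limb bud, of Sp8 null and wild-type mouse forelimbs. They were chosen by name: 58 genes were listed, 56 of them had a row among the 49452 genes of the table, and 55 could be tested. The list holds 18 regulators of G1, the growth phase before DNA replication, 18 genes of S phase, in which DNA is copied, and 22 genes of mitosis, in which the copied chromosomes are parted. Cdt1 and Gins2, both S phase genes, had no row and are not analysed here, and Cdkn2c, an inhibitor of Cdk4 and Cdk6, was under the level needed for a test.

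Polyadenylated RNA was measured in 6 libraries, each from the ectoderm of both forelimbs of a single embryo at stage E10.5, freed from the bud with trypsin (0.25% for 20 min) and fine forceps. The 3 wild-type embryos had C57BL/6 inbred parents. The 3 Sp8 null embryos came from Sp8+/- parents, whose mutant allele is labelled Sp8-Cre-ERT2. C57BL6J is the background strain given for both genotypes. By the parents stated, the genotypes came from different crosses and would share no litter. Sample names of both genotypes start with 4 or 5, and what this number means is not given, so this was not tested. An allele passed on by the parents is carried by every cell of the embryo, not by the ectoderm alone. Each embryo was a separate replicate.

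A cell enters division when cyclin D, bound to Cdk4 or Cdk6, and then cyclin E, bound to Cdk2, phosphorylate the retinoblastoma proteins and so free E2F transcription factors. E2F factors raise the genes for replication, and a later wave of transcription raises those for mitosis. Myc proteins promote entry into the cycle and cell growth as dimers with Max, and Mxd proteins compete with Myc for Max. Sp8, a transcription factor with zinc fingers made in the limb ectoderm, is needed for the apical ridge, a thickened rim of ectoderm whose signals sustain outgrowth of the bud.

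Levels are given in FPKM, in which fragment counts are divided by transcript length and by library size, so that levels of different genes can be set side by side. Fold changes are differences of log2(FPKM + 1), Sp8 null minus wild type, which understates the change of genes at low FPKM. A gene is called different when its p-value from limma, a linear model fitted across all 12133 tested genes, is under 0.05 after Benjamini-Hochberg adjustment over those genes.

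Sp8 itself was at 0.766, 0.460 and 1.14 FPKM in Sp8 null embryos 1, 2 and 3 and at 8.35, 10.97 and 13.5 FPKM in wild-type embryos 1, 2 and 3, so every library followed its label. Relative to wild-type embryo 1, the depth of the other libraries was 0.842 to 1.03, the lowest being Sp8 null embryo 1. Over all tested genes 6.83% were called, 5.15% lower and 1.68% higher in Sp8 null, and 61.3% had a fold change below 0. Of all calls, 24.6% were higher, against 37.3% (326 of them, with 547 lower) when libraries were scaled by median of ratios and 41.7% (363, with 507 lower) when scaled by upper quartile. All 12 surface epithelium markers were at over 10 FPKM in every library, with summed levels of 767 to 1004 FPKM in Sp8 null against 898 to 994 FPKM in wild type, 1 gene called lower (Epcam) and 1 higher (Tfap2a). Limb mesenchyme markers, of the tissue under the ectoderm, summed to 94.5, 211 and 88.8 FPKM in Sp8 null embryos 1, 2 and 3 and to 123, 79.2 and 89.3 FPKM in wild-type embryos 1, 2 and 3, with none of the 12 at 0 in any library. Of the 9 tested mesenchyme markers, with a median log2 fold change of 0.90, Lmx1b was called higher (1.07, limma adjusted p = 0.0166). Without overlap but not called, Col3a1 was higher (1.45) and Pdgfra lower (-1.15) in the null libraries. Erythroid markers summed to 62.8 to 164 FPKM in Sp8 null and 11.7 to 427 FPKM in wild type, the highest being wild-type embryo 1. Endothelial markers summed to 4.38, 3.47 and 2.51 FPKM in Sp8 null embryos 1, 2 and 3 and to 2.05, 2.60 and 2.97 FPKM in wild-type embryos 1, 2 and 3, with overlap. Of these, Cdh5 was listed at 0 in all wild-type libraries and at 0.359, 0.0976 and 0.0242 FPKM in the null libraries, Pecam1 was also higher in null without overlap, and Tie1 and Emcn were above 0 in Sp8 null embryo 1 alone. Macrophage markers summed to 2.80, 5.26 and 3.86 FPKM in Sp8 null embryos 1, 2 and 3 and to 2.54, 1.69 and 1.83 FPKM in wild-type embryos 1, 2 and 3, every null library being the higher. Tyrobp (means 0.603 and 0.105 FPKM), Fcer1g (0.839 and 0.156 FPKM) and Cx3cr1 (0.119 and 0.0222 FPKM) were higher in null without overlap, all under the level needed for a test, and the defining markers Ptprc and Csf1r were at most 0.246 FPKM in every library. The part of these cell types in the results was not tested. In such bulk samples, fewer cells of a type and less RNA per cell cannot be told apart.

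Of the 55 tested members, 5 were called lower in Sp8 null (5.15% of all tested genes were) and none higher. No overlap between the groups was seen for 20 members, each lower in Sp8 null, and for none that was higher, against 21.1% and 8.63% of all tested genes. The 5 called were Mycn, Myc, Ccnd1 and Cdkn1a among the regulators of G1 and Cdk1 among the genes of mitosis. At an unadjusted p under 0.05, 15 members were lower and none higher, against 17.5% and 6.5% of all tested genes. In the authors' deposited table, with its p-values adjusted over the tested genes, 14 members were lower and none higher, against 13.9% and 7.31% of all tested genes. Marker genes of dividing cells such as Mki67 and Top2a did not pass the test. The count depended on single libraries: 1 member was called without Sp8 null embryo 1 or without wild-type embryo 2, 2 without wild-type embryo 1 or 3, 3 without Sp8 null embryo 2 and 4 without Sp8 null embryo 3, all of them lower.

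Upstream sequence is shown for Mycn and Cdk1, since each holds motifs of cell cycle transcription. Mycn had the largest log2 fold change of the members in the reported fit, and Cdk1 was the called gene of mitosis. Motifs were searched in the 250 bases before the start of each gene in RefSeq on GRCm38.p6. GENCODE, the source of the gene coordinates given further on, starts both genes further upstream, so that the last 78 bases of the Mycn window and the last 26 of the Cdk1 window lie inside the gene and are not printed. The 172 and 224 bases before the GENCODE starts are written 5′ to 3′ on the strand of the gene. Capitals mark matches on either strand to E2F motifs (any of TTGGCGC or TTCCCGC or TTGCCGC or TTCGCGC), to the cell cycle homology region, or CHR (TTTGAA or TTCGAA), to CCAAT, and to the GC box of Sp family proteins (GGGCGG). Mycn is at chr12:12941915-12942086, minus strand, and Cdk1 at chr10:69352939-69353162, minus strand.
Mycn: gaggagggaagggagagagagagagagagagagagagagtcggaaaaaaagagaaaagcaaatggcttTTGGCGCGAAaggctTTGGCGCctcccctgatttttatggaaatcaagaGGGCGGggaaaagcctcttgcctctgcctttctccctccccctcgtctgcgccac
Cdk1: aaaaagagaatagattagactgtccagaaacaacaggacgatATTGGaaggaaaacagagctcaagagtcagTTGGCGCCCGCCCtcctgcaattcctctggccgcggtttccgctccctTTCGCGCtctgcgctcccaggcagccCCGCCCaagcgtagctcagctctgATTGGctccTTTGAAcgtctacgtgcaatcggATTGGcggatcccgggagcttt
The Mycn sequence shown holds 3 E2F matches, 2 of which overlap on opposite strands, with 1 GC box and no CCAAT or CHR, and its whole window 1 CHR match and 1 GC box more. The Cdk1 sequence shown holds 2 E2F, 1 CHR, 3 CCAAT and 2 GC box matches, and its whole window 1 CHR match more. In the Cdk1 sequence an E2F match runs directly into a GC box. Cdkn1a had 2 windows: the one nearest the start of the gene (chr17:29090729-29090975, plus strand, with 3 more bases inside the gene) held none of these motifs, and the other held 2 GC boxes, so that Cdkn1a counts as a gene with a GC box. Ccnd1 and Myc had no entry.

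Over the members, 47 had such a sequence. An E2F motif was in 5 of 13 G1 regulators (38.5%), 8 of 15 S phase genes (53.3%) and 4 of 19 mitosis genes (21.1%), against 9.01% of 27025 genes with a sequence of this length. A CHR motif was in 23.1%, 20.0% and 42.1% of the groups in that order, against 19.6% of all genes, and CCAAT in 38.5%, 80.0% and 84.2%, against 37.5%. The GC box, added to the search after the values were seen, was in 92.3%, 66.7% and 73.7%, against 35.4%. The share with E2F was highest in the S phase group and that with CHR in the mitosis group, which was not tested. Such matches are descriptions of sequence and not sites of binding.

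Mycn and Myc had the largest log2 fold changes of the G1 regulators in the reported fit. Without Sp8 null embryo 1 or 3, Ccnd1 and Cdkn1a fell further than Myc. Mycn (ENSMUSG00000037169; GRCm38 chromosome 12, 12936093 to 12941914), the Myc family member best known from embryonic and progenitor cells, was at 9.11, 9.83 and 12.2 FPKM in Sp8 null embryos 1, 2 and 3 and at 23.9, 24.2 and 18.7 FPKM in wild-type embryos 1, 2 and 3. All null libraries lay below all wild-type libraries. Its mean fell from 22.2 ± 3.11 to 10.4 ± 1.65 FPKM (SD, n = 3 each), or to 46.7% of wild type, with a log2 fold change of -1.03 (SE 0.14, limma adjusted p = 0.00625). This was the largest log2 fold change of any member in the reported fit. Myc fell further with 0.1 in place of 1 added to FPKM (-1.12 against -1.09) and without Sp8 null embryo 2 (-1.04 against -0.997). In the other alternatives that tested both genes Mycn fell further. The Mycn call was lost in 1 of 16 alternatives (other filters, scalings or model terms, or libraries left out). That fit, added after the data were seen, kept only the 4 libraries whose sample names start with 5 (limma adjusted p = 0.0788).

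Myc (ENSMUSG00000022346; GRCm38 chromosome 15, 61985391 to 61990374) was low in both genotypes. It was at 1.44, 2.85 and 1.69 FPKM in Sp8 null embryos 1, 2 and 3 and at 4.11, 4.19 and 4.52 FPKM in wild-type embryos 1, 2 and 3. The groups did not overlap, and Sp8 null embryo 2, the library highest in mesenchyme markers, was the nearest to wild type; the part of mesenchyme in this was not tested. The mean was 1.99 ± 0.753 FPKM in Sp8 null against 4.28 ± 0.218 FPKM in wild type (SD, n = 3), 46.6% of wild type (log2 fold change -0.85 with SE 0.17, limma adjusted p = 0.0314). The call was lost when any 1 library but Sp8 null embryo 2 was left out (limma adjusted p from 0.0751 to 0.104), with fold changes from -1.04 to -0.71 over the 6 fits that left out 1 library.

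**Figure D1:**
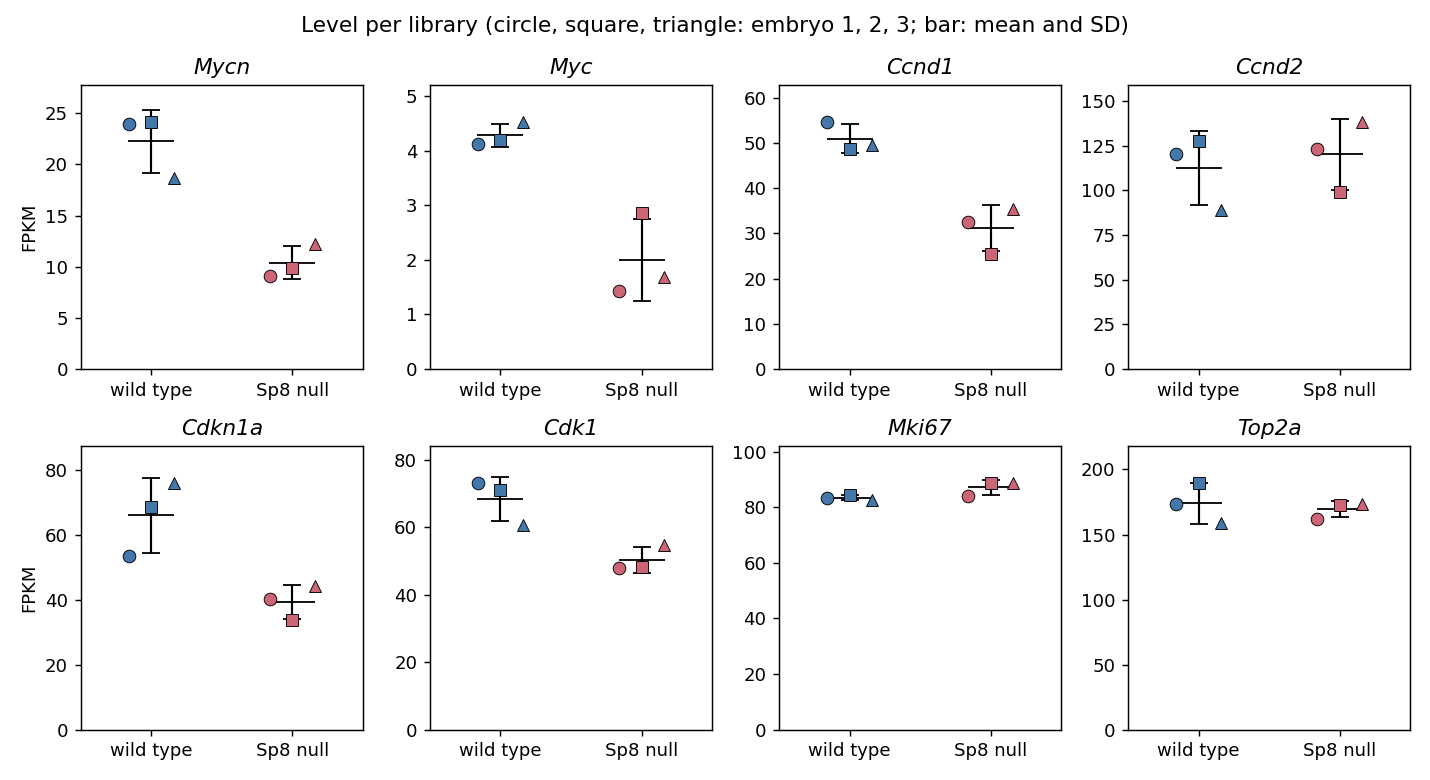
FPKM of 8 members in each library (vertical axes from 0, scales differ; circle, square and triangle are embryos 1, 2 and 3; bars give the mean and SD of 3 libraries). Mycn, Myc, Ccnd1, Cdkn1a and Cdk1 show no overlap between genotypes, while Ccnd2, Mki67 and Top2a overlap.

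Genes around Myc were read from a list of other G1 regulators. Mycl, the remaining family member, was at 10.8 ± 1.18 FPKM in Sp8 null against 11.8 ± 0.792 FPKM in wild type and did not pass the test (log2 fold change -0.13, limma adjusted p = 0.468). Of the summed FPKM of Myc, Mycn and Mycl, Mycn made up 57.8% ± 3.48 in wild type and 44.8% ± 2.43 in Sp8 null, and Mycl 31.0% ± 2.16 and 46.5% ± 3.88 (SD, n = 3). Mycl was thus the smaller of the pair in every wild-type library, and the larger in Sp8 null embryo 1 alone. Max, the shared partner, was at 42.0, 36.9 and 42.9 FPKM in Sp8 null against 47.6, 50.1 and 48.4 FPKM in wild type (log2 fold change -0.26, limma adjusted p = 0.0899), so its groups did not overlap but the test was not passed.

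Mxd1 and Mxd4, which code for repressors that pair with Max, rose. Mxd1 was at 3.28, 4.16 and 4.08 FPKM in Sp8 null embryos 1, 2 and 3 against 2.23, 2.09 and 2.16 FPKM in wild type (log2 fold change 0.61 with SE 0.11, limma adjusted p = 0.0185). Mxd4 was at 8.10, 6.81 and 7.20 FPKM against 4.48, 4.80 and 4.63 FPKM (log2 fold change 0.57 with SE 0.09, limma adjusted p = 0.0136). For both genes every null library was above every wild-type library. Mxd1 passed in 7 of 15 alternatives and Mxd4 in 13 of 16, and the fold changes stayed above 0 in all of them. Mxd3, Mxi1, Mnt and Mga, the other Max partners in the list, did not pass (log2 fold changes 0.12, -0.08, 0.13 and -0.09).

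**Figure D2:**
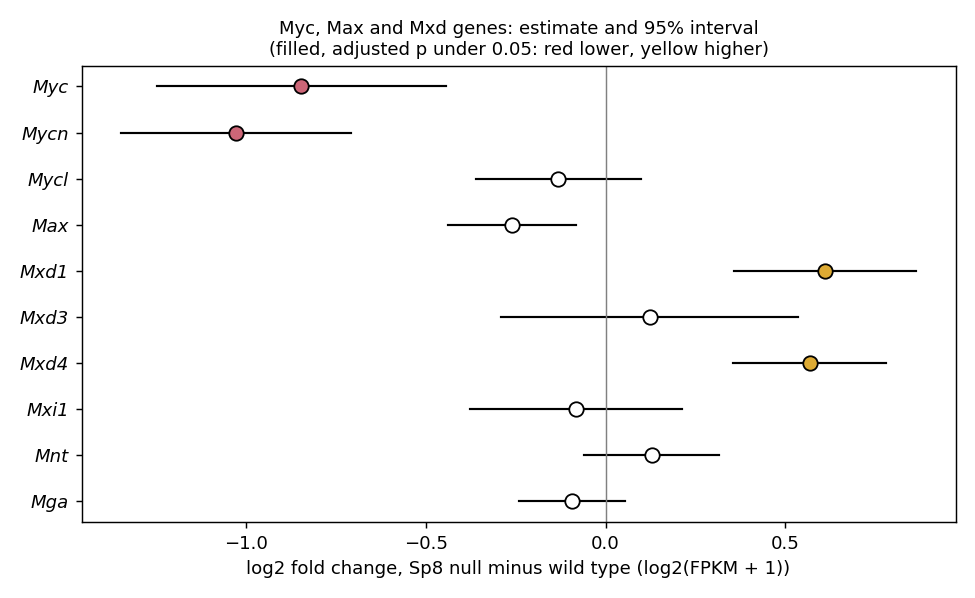
Log2 fold change of log2(FPKM + 1), Sp8 null minus wild type, for 10 genes of the Myc, Max and Mxd group, with 95% limma intervals from 3 libraries per genotype. Myc and Mycn lie below 0 and Mxd1 and Mxd4 above 0 with their whole intervals and passed the adjusted threshold, while Max lies below 0 with its whole interval and did not pass.

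Of the D cyclins, which couple growth signals to the cycle, Ccnd1 was called and Ccnd2 and Ccnd3 were not. Ccnd1 (cyclin D1, ENSMUSG00000070348; GRCm38 chromosome 7, 144929931 to 144939925) was at 32.5, 25.4 and 35.5 FPKM in Sp8 null embryos 1, 2 and 3 and at 54.6, 48.7 and 49.5 FPKM in wild-type embryos 1, 2 and 3. Its groups did not overlap, and Sp8 null embryo 2 was the lowest library. The mean fell from 51.0 ± 3.21 to 31.1 ± 5.16 FPKM (SD, n = 3), 61.1% of wild type (log2 fold change -0.70 with SE 0.12, limma adjusted p = 0.0173). Leaving out Sp8 null embryo 1 or any wild-type embryo raised the limma adjusted p to between 0.0510 and 0.0593, with fold changes from -0.80 to -0.57 over all 6 fits that left out 1 library. An exon of Ccnd1 overlaps a gene on the other strand, LTO1 in the annotation, and whether reads were counted by strand was not stated.

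Ccnd2 (cyclin D2) was the most abundant D cyclin, at 123, 99.0 and 138 FPKM in Sp8 null embryos 1, 2 and 3 and at 121, 128 and 88.8 FPKM in wild-type embryos 1, 2 and 3. Its groups overlapped widely (log2 fold change 0.10, 95% interval -0.29 to 0.49, limma adjusted p = 0.758). The interval held both falls and rises. How large a change could be detected with 3 libraries per genotype was not tested. Ccnd3 (cyclin D3) was at 28.7 ± 2.73 FPKM in Sp8 null against 29.9 ± 1.84 FPKM in wild type (log2 fold change -0.06, 95% interval -0.27 to 0.15, limma adjusted p = 0.730). Of the summed D cyclin FPKM, Ccnd1 held 26.4%, 23.7% and 29.7% in wild-type embryos 1, 2 and 3 and 17.4%, 16.9% and 17.5% in Sp8 null embryos 1, 2 and 3. The share, which does not depend on scaling between libraries, was lower in every null library than in every wild-type library.

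The kinases of G1 did not pass the test. Cdk4, the partner of the D cyclins, was the most abundant member of all, at 293 ± 27.4 FPKM in Sp8 null against 303 ± 6.55 FPKM in wild type (log2 fold change -0.05, 95% interval -0.24 to 0.14, limma adjusted p = 0.737). Cdk6, the alternative partner, was at 26.7, 18.2 and 26.2 FPKM in Sp8 null and at 31.0, 30.0 and 28.7 FPKM in wild type. Its groups did not overlap, with Sp8 null embryo 2 the lowest, but the test was not passed (log2 fold change -0.34, limma adjusted p = 0.190). Cdk2, the partner of cyclin E, was at 5.38 ± 0.755 FPKM in the null and 5.36 ± 0.612 FPKM in the wild-type libraries (log2 fold change 0.00, 95% interval -0.28 to 0.29, limma adjusted p = 0.994). Ccne1 and Ccne2, the E cyclins, were at 7.73 ± 0.261 and 7.56 ± 0.343 FPKM in Sp8 null and at 8.36 ± 0.685 and 9.81 ± 1.57 FPKM in wild type (log2 fold changes -0.10 and -0.33, limma adjusted p = 0.539 and 0.134).

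Among the inhibitors, Cdkn1a, which codes for p21, a brake on cyclin-dependent kinases that p53 induces, fell. Cdkn1a (ENSMUSG00000023067; GRCm38 chromosome 17, 29090976 to 29100727) was at 40.1, 33.7 and 44.1 FPKM in Sp8 null embryos 1, 2 and 3 and at 53.4, 68.6 and 76.0 FPKM in wild-type embryos 1, 2 and 3. The groups did not overlap, and the wild-type libraries were the more spread. The mean fell from 66.0 ± 11.5 to 39.3 ± 5.27 FPKM (SD, n = 3), 59.6% of wild type (log2 fold change -0.73 with SE 0.15, limma adjusted p = 0.0313). The call was lost under median-of-ratios and upper-quartile scaling (limma adjusted p = 0.0578 and 0.0584) and without Sp8 null embryo 1 or 2 or wild-type embryo 2 or 3 (limma adjusted p from 0.0755 to 0.117). An exon of Cdkn1a overlaps an annotated gene on the other strand.

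The other inhibitors did not pass. Cdkn1b, which codes for p27, was at 6.90 ± 0.729 FPKM in Sp8 null against 6.37 ± 0.369 FPKM in wild type (log2 fold change 0.10, 95% interval -0.13 to 0.33, limma adjusted p = 0.600). Cdkn1c, which codes for p57 and was read from the list of other G1 regulators, was at 119, 106 and 135 FPKM in Sp8 null and at 95.2, 85.2 and 56.6 FPKM in wild type (log2 fold change 0.62, limma adjusted p = 0.0977). Its groups did not overlap, and wild-type embryo 3 was the lowest. Of the summed FPKM of Cdkn1a, Cdkn1b and Cdkn1c, Cdkn1a held 44.0% ± 10.2 in wild type and 23.6% ± 0.678 in Sp8 null, and Cdkn1c 51.8% ± 10.4 and 72.2% ± 0.311 (SD, n = 3). Cdkn2c was at 0.489, 0.792 and 0.379 FPKM in Sp8 null and at most 0.404 FPKM in wild type, under the filter. In the list of other G1 regulators Cdkn2a was listed at 0 in every library, Cdkn2b was at most 0.776 FPKM, and Cdkn2d was at 5.17 ± 0.248 FPKM in the null and 5.16 ± 0.810 FPKM in the wild-type libraries.

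A list of other p53 targets was read beside Cdkn1a. Of its 12 tested genes, 2 were called higher (1.68% of all tested genes were) and none lower, and the median of their log2 fold changes was -0.01. Btg2, which codes for an antiproliferative protein, was at 5.91, 6.77 and 6.97 FPKM in Sp8 null and at 3.45, 3.20 and 3.38 FPKM in wild type (log2 fold change 0.80 with SE 0.09, limma adjusted p = 0.00383). Trp53inp1, a stress-induced p53 partner, was at 17.3, 17.4 and 16.5 FPKM against 12.05, 10.7 and 10.1 FPKM (log2 fold change 0.60 with SE 0.08, limma adjusted p = 0.00766). Trp53, the gene of p53, and Mdm2, which codes for its ubiquitin ligase, did not pass (log2 fold changes 0.07 and 0.04). The list held both signs, with 7 tested genes below 0 and 5 above. Phlda3 was at 6.97, 5.49 and 5.13 FPKM in the null libraries and at 10.7, 9.05 and 7.96 FPKM in the wild-type libraries, and did not overlap (log2 fold change -0.58, limma adjusted p = 0.0506). Sesn1 was also lower without overlap (-0.22, limma adjusted p = 0.157), and Pmaip1 had -0.81 with overlap (limma adjusted p = 0.212). Eda2r was higher without overlap (0.25, limma adjusted p = 0.163).

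The retinoblastoma and E2F genes among the members lay slightly lower with no call. Those in the list of other G1 regulators held both signs with no call. They ran from E2f5 (log2 fold change -0.35, without overlap, limma adjusted p = 0.0882) to E2f8 (0.06). Rb1 was at 12.1 ± 0.879 FPKM in Sp8 null against 13.4 ± 0.829 FPKM in wild type (log2 fold change -0.14, limma adjusted p = 0.362), and its relative Rbl1 at 5.72 ± 0.255 FPKM in null and 6.14 ± 0.183 FPKM in wild-type libraries (-0.09, limma adjusted p = 0.558). The activating factors E2f1, E2f2 and E2f3 had log2 fold changes of -0.16, -0.16 and -0.22 (limma adjusted p = 0.365, 0.393 and 0.172). In each of these 3 genes every null library was below every wild-type library, as in 10 of the 17 tested G1 regulators, while 21.1% of all tested genes were so placed. In the authors' deposited table, whose signed fold changes are not on the log2 scale, Rb1 had -1.36 with a p-value listed as 0. E2f2 had -1.26 there with a deposited p-value of 0.00507, or 0.0278 after Benjamini-Hochberg adjustment over the tested genes.

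The 17 tested G1 regulators had a median log2 fold change of -0.16, against -0.06 over all tested genes, with 14 below 0. Under median-of-ratios and upper-quartile scaling this median was -0.09 and -0.07, against 0.01 and 0.03 over all tested genes, with 12 below 0 in each. The wider list of 35 tested G1 regulators had a median of -0.01, with 1 gene called lower and 3 higher, against 5.15% and 1.68% of all tested genes. Beside Mxd1 and Mxd4 these were Tfdp2, a dimer partner of E2F factors (log2 fold change 0.37, limma adjusted p = 0.0369), and Skp1a, a subunit of a ubiquitin ligase that degrades cell cycle proteins (-0.38, limma adjusted p = 0.0343). The Tfdp2 and Skp1a calls were lost in 11 and 12 of 16 alternatives.

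**Figure D3:**
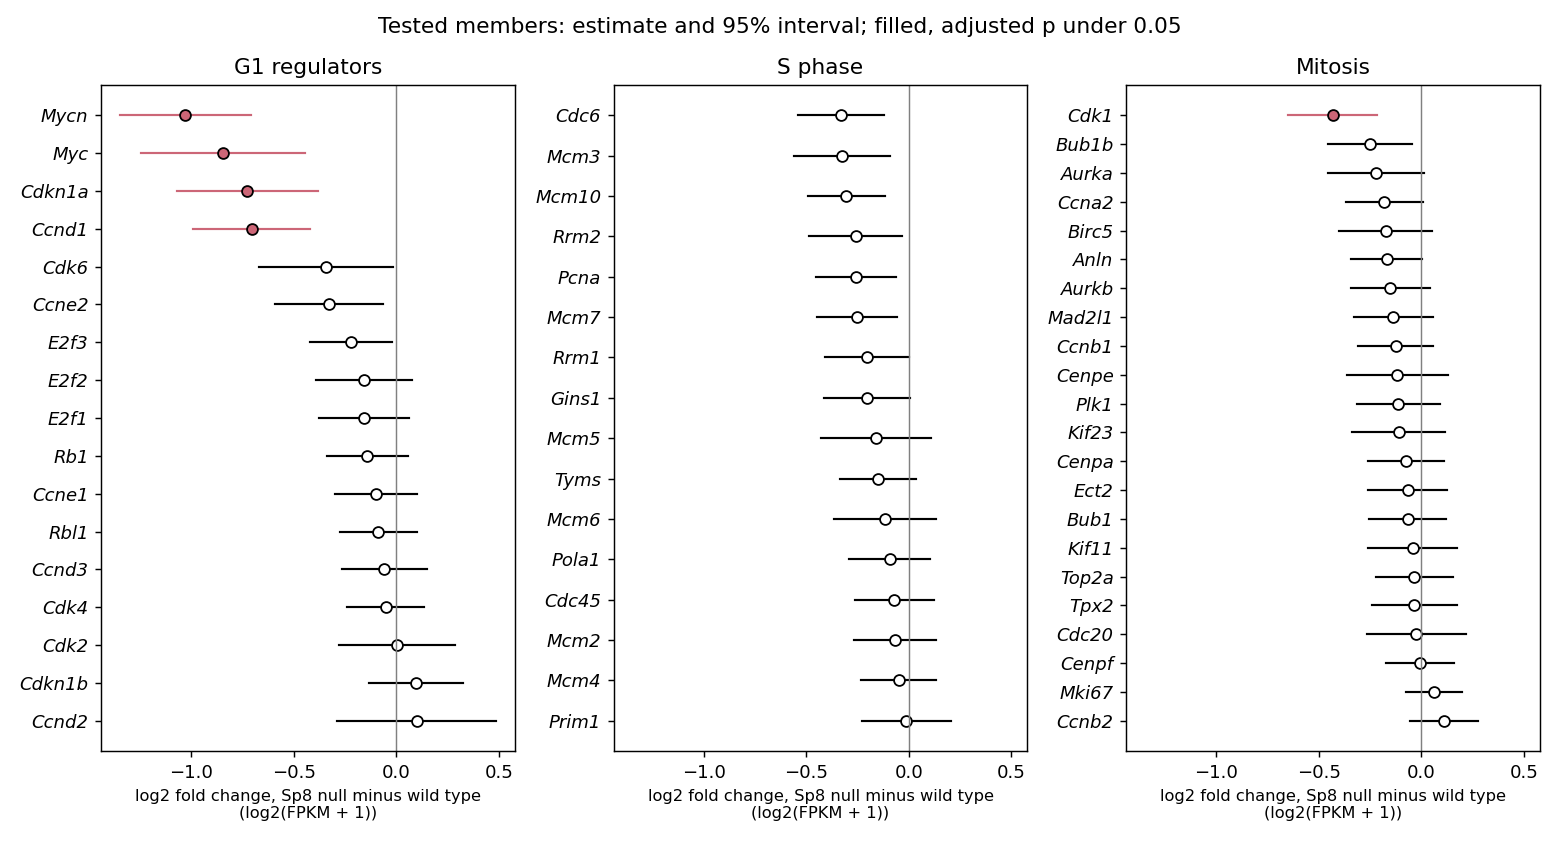
Log2 fold change of log2(FPKM + 1), Sp8 null minus wild type, for the 55 tested members in 3 groups, with 95% limma intervals from 3 libraries per genotype. Filled points passed the adjusted threshold: 4 of 17 G1 regulators, none of 16 S phase genes and 1 of 22 mitosis genes.

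No S phase gene was called: 0 of 16 passed in limma, in the reported fit and in all 16 alternatives, against 6.83% of all tested genes. At an unadjusted p under 0.05, 6 were lower and none higher, against 17.5% and 6.5% of all tested genes. In the authors' deposited table, after adjustment over the tested genes, 6 were lower and none higher, against 13.9% of all tested genes called lower there. All 16 had a fold change below 0, from -0.33 to -0.01, with a median of -0.18. The direction of the smaller ones depended on scaling: 13 were below 0 with median-of-ratios scaling and 12 with upper-quartile scaling. Measured against the median of all tested genes, 14 of 16 were below it in all 3 of these fits.

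Mcm10, Cdc6 and Mcm3 had the smallest p-values of the S phase group. Mcm10, a factor that helps fire replication origins, was at 18.3, 19.7 and 18.8 FPKM in Sp8 null embryos 1, 2 and 3 and at 24.5, 21.6 and 25.0 FPKM in wild type (log2 fold change -0.30 with SE 0.08, limma adjusted p = 0.0656). Cdc6, which loads the replicative helicase on origins, was at 13.1, 12.9 and 14.8 FPKM against 18.5, 17.9 and 15.8 FPKM (-0.33 with SE 0.09, limma adjusted p = 0.0713). Mcm3, a subunit of that helicase, was at 73.4, 72.8 and 86.9 FPKM against 99.3, 106 and 87.6 FPKM (-0.33 with SE 0.10, limma adjusted p = 0.101). For all 3 genes the null libraries were below the wild-type libraries, and Sp8 null embryo 3 and wild-type embryo 3 nearly met for Mcm3. In the authors' deposited table their signed fold changes, which are not on the log2 scale, were -1.28, -1.24 and -1.20. The deposited p-values were 4e-06, 3.2e-05 and 2.7e-05, and 6.0e-05, 0.00040 and 0.00034 after Benjamini-Hochberg adjustment over the tested genes.

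The genes of the helicase subunits Mcm2 to Mcm7, which act as a hexamer, were not at equal FPKM. Protein levels were not measured. In wild type Mcm7 was at 107 ± 8.77 and Mcm3 at 97.6 ± 9.34 FPKM, Mcm6 at 63.4 ± 1.84, Mcm4 at 43.4 ± 0.745, Mcm5 at 33.1 ± 3.48 and Mcm2 at 25.9 ± 1.97 FPKM (SD, n = 3). The order was the same in Sp8 null. Neighbours in it whose libraries overlapped were Mcm7 and Mcm3 in both genotypes and Mcm5 and Mcm2 in Sp8 null. Mcm3 and Mcm7 had the lowest fold changes (-0.33 and -0.25), and Mcm2, Mcm4 and Mcm6 the highest (-0.07, -0.05 and -0.12). Exons of Mcm7 overlap Ap4m1 and Cops6 on the other strand and the microRNA genes Mir25 and Mir93 on its own.

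Pcna, the sliding clamp of DNA polymerases, was at 116, 112 and 128 FPKM in Sp8 null embryos 1, 2 and 3 and at 153, 143 and 130 FPKM in wild-type embryos 1, 2 and 3 (log2 fold change -0.26, limma adjusted p = 0.118). Tyms, which makes thymidylate for DNA, was the most abundant S phase gene, at 130 ± 9.18 FPKM in Sp8 null against 144 ± 9.72 FPKM in wild type (-0.15, limma adjusted p = 0.305). Rrm1 and Rrm2, the subunits of ribonucleotide reductase, had log2 fold changes of -0.20 and -0.26 (limma adjusted p = 0.210 and 0.160). The polymerase and primase genes Pola1 and Prim1, with Cdc45 of the active helicase, were closest to 0 beside Mcm2 and Mcm4, at -0.09, -0.01 and -0.07. For Prim1 the 95% interval ran from -0.23 to 0.20.

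The list of 49 other replication genes also lay mostly below 0. Of these, 43 had a fold change below 0 (61.3% of all tested genes did), and 2 were called lower and none higher. The median was -0.13, against -0.06 over all tested genes. The called genes were Tipin, a component of the fork protection complex (37.5, 40.7 and 43.1 FPKM in Sp8 null against 54.9, 56.0 and 48.5 FPKM in wild type; log2 fold change -0.39, limma adjusted p = 0.0396), and Rnaseh2a, which removes RNA from DNA (11.7, 11.1 and 11.998 against 20.1, 17.2 and 14.5 FPKM; -0.52, limma adjusted p = 0.0403). Each call was lost in 9 of 16 alternatives. Calls of 2 in 49 genes are near the 5.15% called lower over all tested genes. At an unadjusted p under 0.05, 11 were lower and none higher, against 17.5% and 6.5% of all tested genes. Without overlap, 13 were lower and 1 higher, against 21.1% and 8.63%. In the authors' deposited table, after adjustment over the tested genes, 10 were lower and none higher, against 13.9% and 7.31%.

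Summed over its 16 genes, the S phase group was at 758, 789 and 875 FPKM in Sp8 null embryos 1, 2 and 3 and at 956, 964 and 869 FPKM in wild-type embryos 1, 2 and 3. Sp8 null embryo 3 lay just above wild-type embryo 3, so the groups overlapped, and Sp8 null embryo 1, the library of lowest depth, was the lowest. The median fold change of the group was -0.14 without that library and -0.24 without Sp8 null embryo 3. The part of depth in this was not tested.

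**Figure D4:**
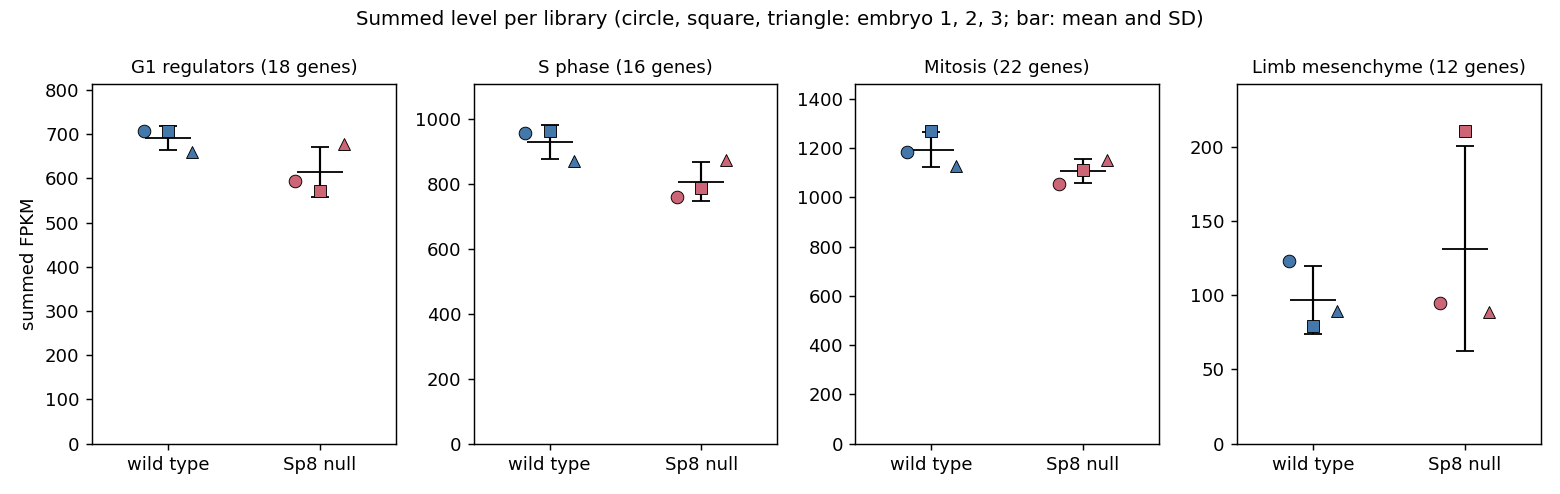
Summed FPKM per library of the G1, S phase and mitosis groups and of the limb mesenchyme markers (vertical axes from 0; circle, square and triangle are embryos 1, 2 and 3; bars give the mean and SD of 3 libraries). The 3 cell cycle groups overlap between genotypes, and Sp8 null embryo 2 stands at 211 FPKM in the mesenchyme markers.

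In mitosis, Cdk1 was the member called. Cdk1 (ENSMUSG00000019942; GRCm38 chromosome 10, 69335146 to 69352938), the kinase that drives entry into mitosis, was at 48.0, 48.2 and 54.8 FPKM in Sp8 null embryos 1, 2 and 3 and at 73.2, 71.1 and 60.8 FPKM in wild-type embryos 1, 2 and 3. The groups did not overlap, with embryo 3 of each genotype the nearest to the other group. The mean fell from 68.4 ± 6.64 to 50.3 ± 3.91 FPKM (SD, n = 3), 73.6% of wild type (log2 fold change -0.43 with SE 0.09, limma adjusted p = 0.0377). For Cdk1 the authors' deposited table lists -1.28 as signed fold change, which is not on the log2 scale. The deposited p-value was 1e-06, or 1.7e-05 after Benjamini-Hochberg adjustment over the tested genes. The call was lost in 9 of 16 alternatives, among them those without Sp8 null embryo 1 or 2 or wild-type embryo 1 or 2 (limma adjusted p from 0.110 to 0.140), and with no filter on low levels (0.107 in limma).

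The cyclins that bind Cdk1 did not follow it to a call. Ccna2 (cyclin A2) was at 57.6, 54.8 and 58.8 FPKM in Sp8 null and at 68.8, 67.5 and 58.5 FPKM in wild type (log2 fold change -0.18, limma adjusted p = 0.219). Ccnb1 (cyclin B1) was at 58.3 ± 2.37 FPKM in null and 63.8 ± 5.14 FPKM in wild-type libraries (-0.13, limma adjusted p = 0.377). Ccnb2 (cyclin B2) was at 35.6 ± 2.43 FPKM in Sp8 null against 32.8 ± 0.428 FPKM in wild type (0.11, 95% interval -0.06 to 0.28, limma adjusted p = 0.397), the highest fold change of the group. The difference between Cdk1 and its cyclins was not itself tested.

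Mki67 and Top2a, which are used to mark dividing cells, had intervals that held 0, that of Mki67 being the narrower. Mki67, which codes for the Ki-67 antigen found in cycling cells, was at 83.9, 88.7 and 88.8 FPKM in Sp8 null embryos 1, 2 and 3 and at 83.4, 84.3 and 82.8 FPKM in wild-type embryos 1, 2 and 3 (log2 fold change 0.06, 95% interval -0.08 to 0.20, limma adjusted p = 0.581). Top2a, a topoisomerase that untangles chromosomes, was the most abundant mitosis gene, at 169 ± 6.17 FPKM in null and 174 ± 15.6 FPKM in wild-type libraries (-0.03, 95% interval -0.22 to 0.15, limma adjusted p = 0.830), and its sign turned under median-of-ratios (0.04) and upper-quartile scaling (0.06). A fall of Mki67 by more than 0.08 on the log2 scale lay outside its interval.

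Genes of the spindle checkpoint, which holds chromosomes until they are attached, gave no call. Bub1b was the lowest of them, at 96.0, 89.0 and 93.0 FPKM in Sp8 null against 97.7, 120 and 115 FPKM in wild type (log2 fold change -0.25, limma adjusted p = 0.140), without overlap. Bub1, Mad2l1 and Cdc20, the last an activator of the complex that ends mitosis, had log2 fold changes of -0.07, -0.14 and -0.03. The kinases Plk1, Aurka and Aurkb were at -0.11, -0.22 and -0.15, and Birc5, a partner of Aurkb in the chromosomal passenger complex, at -0.17, with limma adjusted p from 0.232 to 0.478.

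Genes of kinetochores, spindle and cell cleavage were placed likewise. Cenpa, the histone that marks centromeres, and the kinetochore genes Cenpe and Cenpf had log2 fold changes of -0.08, -0.12 and -0.01, and the spindle motors Kif11 and Kif23 with the spindle factor Tpx2 had -0.04, -0.11 and -0.03. Anln, a scaffold of the cleavage furrow, was at 19.8, 21.1 and 22.1 FPKM in Sp8 null and at 23.0, 25.1 and 23.2 FPKM in wild type (-0.17, limma adjusted p = 0.215), and the cytokinesis regulator Ect2 at -0.07. Anln, Bub1b and Cdk1 were the 3 of 22 mitosis genes whose groups did not overlap, each lower in Sp8 null, against 21.1% of all tested genes.

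Of the 22 mitosis genes 20 had a fold change below 0, with a median of -0.11 against -0.06 over all tested genes, and 15 were below that median. Under median-of-ratios and upper-quartile scaling 13 and 12 were below 0, and without Sp8 null embryo 1 the median was -0.03. Of the 63 tested genes in the list of other mitosis genes none was called in limma, against 6.83% of all tested genes, and the median was -0.06. At an unadjusted p under 0.05, 4 of the 63 were lower and 1 higher, against 17.5% and 6.5% of all tested genes. In the authors' deposited table, after adjustment over the tested genes, 3 of these were lower and none higher, against 13.9% and 7.31%. The mitosis group summed to 1055, 1110 and 1152 FPKM in Sp8 null embryos 1, 2 and 3 and to 1183, 1271 and 1127 FPKM in wild-type embryos 1, 2 and 3, with overlap.

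Set side by side, the share of tested members called was 4 of 17 for G1 regulators, 0 of 16 for S phase genes and 1 of 22 for mitosis genes, against 6.83% of all tested genes. The summed level in Sp8 null was 88.8% of wild type for the G1 group, 86.8% for the S phase group and 92.6% for the mitosis group. Whether the groups differ from each other was not tested.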

How the data were processed

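The authors deposited a single table with FPKM per gene and library, an estimate status, and for the comparison of genotypes a mean signal per group, a signed fold change score and a p-value. Per the file headers, gene models were Ensembl build 87. The submitters' processing notes name TopHat2, SAMtools, Cufflinks, DESeq2, FastQC and GRCm38. Which test gave the deposited p-value, and whether reads were counted by strand, is not given in the sources used here.

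Genes that reached 1 FPKM in 3 or more libraries were kept, and log2(FPKM + 1) was fitted with genotype as the only term, in limma 3.58.1 with R 4.3.3 and a mean-variance trend. P-values were two-sided. The fit was tested on simulated data. Members and lists were chosen with earlier results of these data known. Named are all called members, the 3 most abundant and the 3 of smallest p in each group, all G1 members, untested members, and up to 6 called genes of each other list; genes beyond these were chosen after their values were seen. Genes were placed by Ensembl identifier in GENCODE M21 (GRCm38). Depth is relative, from the worth of 1 read in low genes, and FPKM gave no whole reads, so no count test was run. At most 1 gene over 1 FPKM had equal values in any pair of libraries.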

Additional observations from a re-analysis of the deposited data

How the results depend on the processing

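Over 36 named genes and 572 values under the alternatives, 472 kept direction and side of the threshold, 84 kept their sign and lost the threshold, none passed newly and 16 turned sign, all 16 in genes not called. The cause was not tested unless stated.

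Calls over the whole table were 829 (204 higher, 625 lower). They were 342 (76 and 266) with no filter, 545 (133 and 412) with the number that opens the sample name (the leading number) as a term, and 251 (92 and 159) in the 4 libraries whose name starts with 5, chosen after seeing the data and a fit with fewer samples. Higher calls were 130 with a mean of at least 5 FPKM, 326 under median-of-ratios scaling and 363 under upper-quartile scaling. Leaving out 1 replicate gave 316 to 642 calls, 83 to 153 higher and 233 to 537 lower. Embryo numbers gave no pairing: deviations of same-numbered libraries correlated at -0.16, -0.14 and -0.07, and no number correlated best with itself. With them as a replicate block there were 328 calls (79 higher, 249 lower), 3 members lower, 0 mitosis genes, 0 other G1 regulators in either direction, 0 other replication genes and 1 p53 target lower.

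The 5 members called lower were 1 with no filter, 0 in the libraries numbered 5, and 1 to 4 with 1 replicate left out. G1 calls were 1, 0 and 1 to 3 in the same order, against 4. The single mitosis call was lost (0) with no filter, with the leading number as a covariate, with no mean-variance trend, in the libraries numbered 5, and in 4 of the 6 fits without a replicate (0 to 1).

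Among other G1 regulators the 1 lower call became 0 with no filter, under both scalings, with the leading number as a covariate, with no trend and in the libraries numbered 5, and 0 to 1 without a replicate. The 3 higher calls became 1 with no filter, 5 under upper-quartile scaling, 0 in the libraries numbered 5, and 0 to 2 without a replicate. The 2 lower calls of other replication genes became 0 with no filter, with no trend and in the libraries numbered 5, 1 with the leading number, and 0 to 3 without a replicate. Other mitosis genes had 1 higher call under each scaling. For p53 targets 1 lower call appeared with a mean of at least 5 FPKM, with the leading number, with failed estimates left out, and in fits without a replicate (0 to 1). The 2 higher calls became 1 with the 5 FPKM filter, under which Btg2 was not tested. Btg2 passed in all 15 alternatives that tested it.

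Signs turned for Ccnd3 (log2 fold change 0.015 under median-of-ratios and 0.0355 under upper-quartile scaling, -0.1243 to 0.0087 without a replicate), Cdk4 (0.0241 and 0.0452 in that order, 0.0257 in the libraries numbered 5, -0.1217 to 0.0117 without a replicate), Top2a (0.0413 and 0.0624, -0.0986 to 0.0305 without a replicate), Ccnd2 (-0.0604 to 0.2315 without a replicate) and Cdk2 (-0.0747 to 0.0966 without a replicate). Whether depth limits the genes at a few FPKM, such as Myc and Mxd1, was not tested.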
